A study of Mus musculus with 14 samples.

Results

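The windows described here are those that lie closest to Irf4, Batf, Prdm1, Myb and Bhlhe40, 5 genes for transcription factors of effector regulatory T (Treg) cells. They come from bulk ATAC-seq, in which a transposase cuts and tags open chromatin, so that the count of reads at a site measures how accessible it was. A window was taken when, of all protein-coding start sites, that of 1 of the 5 genes was nearest to its centre, within 100 kb. This gave 276 of the 240778 windows of the table, 85 for Irf4, 22 for Batf, 36 for Prdm1, 62 for Myb and 71 for Bhlhe40. The assignment of windows to genes used no measured value, but the 5 genes were chosen with earlier results of these data known. Joining windows that overlap left 177 separate regions.

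Treg cells of spleen and lymph nodes were taken from Foxp3AID mice, whose Foxp3 protein is fused to an auxin-inducible degron. All mice received 5-ph-IAA, the ligand that starts degradation of the fusion protein where the receptor TIR1(F74G) is present. The 4 groups were R26TIR1(F74G) mice (n = 4) and R26WT mice without the receptor (n = 4) after 3 days of treatment, and R26TIR1(F74G) mice (n = 3) and R26WT mice (n = 3) after 7 days. TIR1(F74G) was expressed from the R26 locus, under a CAG promoter, behind a stop cassette that is removed by Cre made from the Foxp3AID allele. The controls thus shared the degron allele, the Cre and the ligand, but not TIR1(F74G) or the mCherry reporter of its allele. No untreated mice were among these samples, so effects of that allele cannot be told apart from those of Foxp3 loss. The labels give no age and no activation state, whereas the study describes sorted resting and activated cells for its bulk profiling, so the share of each in a library cannot be told apart from accessibility per cell. In bulk samples, fewer cells with an open site and a less open site in each cell cannot be told apart either. For its accessibility profiling on day 7 the study describes females heterozygous for Foxp3AID, which also hold Treg cells with unmodified Foxp3, and a sort for the ZsGreen reporter of the Foxp3AID allele. The labels name neither zygosity nor sex. Each library carries the name of a different mouse.

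Effector Treg cells arise from resting Treg cells upon antigen receptor stimulation. Irf4, a factor of the interferon regulatory family, is induced by receptor signaling and binds DNA together with Batf, a basic leucine zipper factor of the AP-1 family, at composite sites. Prdm1 encodes Blimp-1, a repressor that marks differentiated effector cells and is a known target of Irf4. Myb encodes c-Myb, which is required in Treg cells for the effector state, and Bhlhe40 encodes a basic helix-loop-helix repressor that binds E-boxes and acts on cytokine genes such as Il10 in T cells.

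RefSeq sequence before the start site (GRCm38.p6) was at hand for Irf4, Batf, Prdm1 and Myb. The 250 bases ahead of each start are shown because they overlap the windows at these starts whose accessibility was compared. They are written 5′ to 3′ on the strand of the gene, and capitals mark matches to motifs of the factors themselves. The searched motifs, on both strands, were TGANTCA (AP-1, which can match both strands at 1 place), the IRF motif, GAAAGT (Blimp-1), CACGTG (E-box) and AACNGNC (Myb).
Irf4, chr13:30748983-30749232, plus strand: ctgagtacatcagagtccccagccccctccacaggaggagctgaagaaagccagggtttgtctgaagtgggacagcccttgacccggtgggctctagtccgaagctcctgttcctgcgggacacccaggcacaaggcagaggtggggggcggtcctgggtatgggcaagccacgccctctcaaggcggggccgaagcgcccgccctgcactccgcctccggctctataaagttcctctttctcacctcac
Batf, chr12:85686470-85686719, plus strand: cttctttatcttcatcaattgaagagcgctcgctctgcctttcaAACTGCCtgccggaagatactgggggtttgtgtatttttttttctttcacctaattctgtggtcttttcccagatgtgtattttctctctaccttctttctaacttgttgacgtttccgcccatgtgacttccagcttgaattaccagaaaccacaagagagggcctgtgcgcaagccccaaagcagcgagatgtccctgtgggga
Prdm1, chr10:44458749-44458998, minus strand: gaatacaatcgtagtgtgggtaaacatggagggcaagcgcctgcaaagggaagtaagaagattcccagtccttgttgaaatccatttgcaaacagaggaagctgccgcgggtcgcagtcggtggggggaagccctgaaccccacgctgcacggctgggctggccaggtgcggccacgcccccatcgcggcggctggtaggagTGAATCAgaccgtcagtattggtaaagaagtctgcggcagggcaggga
Myb, chr10:21160985-21161234, minus strand: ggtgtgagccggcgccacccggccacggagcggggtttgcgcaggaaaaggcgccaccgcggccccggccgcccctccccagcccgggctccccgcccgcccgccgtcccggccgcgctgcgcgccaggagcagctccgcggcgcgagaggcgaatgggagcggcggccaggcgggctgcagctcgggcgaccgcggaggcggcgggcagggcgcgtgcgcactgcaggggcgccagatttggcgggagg
Batf held 1 Myb motif, AACTGCC, at position -206 from its start. Prdm1 held 1 AP-1 motif, TGAATCA, at position -48. Irf4 had 1 Blimp-1 motif that spans the start itself and is therefore not in the printed bases, and Myb had none of the motifs. Among 21263 protein-coding promoters of 300 bases, 32.2% held the Myb motif, 6.99% the AP-1 motif, 13.5% the Blimp-1 motif, 7.84% the E-box and 3.35% the IRF motif. The G and C content of the printed bases was 81.2% for Myb, 63.6% for Irf4, 59.2% for Prdm1 and 46.4% for Batf, against a median of 55.6% over all promoters. The Prdm1 sequence belongs to a start inside the gene, 69810 bp from its outer 5′ end.

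Library totals ranged from 5653289 to 20184487 counts in windows, and the shallowest libraries were R26TIR1(F74G) replicate 1 of day 3 and R26WT replicate 3 of day 7 (6348754 counts). The degron acts on Foxp3 protein, so these data hold no check of its loss. Windows within 1 kb of the start were found for 5 of 6 markers of Treg and CD4 T cells (all but Foxp3), with a summed level between 53.7 and 74.5 CPM in every library. CPM is the count of a window scaled to the total of its library, with TMM factors, which sets the bulk of windows equal between libraries. The windows of 3 B cell and plasma cell markers were also summed, and their sum ranged from 6.91 to 10.1 CPM outside R26TIR1(F74G) mice of day 3 and from 7.56 to 13.7 CPM among them, the highest value being that of the shallowest library. For myeloid cells 4 of 6 markers had such a window, without Lyz2 and Csf1r (11.3 to 14.3 CPM in sum), for CD8 T cells 2 of 2 (11.3 to 15.5 CPM) and for NK cells 0 of 2. A missing start window does not show that a locus was closed. Within 100 kb the NK cell marker Klrb1c had 18 windows, with a mean sum of 366 CPM of the counts that fall to any gene. Ncr1 had 1 window, at 1.71 CPM. The summed levels of the 4 lists with windows within 1 kb of a start overlapped between genotypes on both days, and their part in the values below was not tested.

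All 5 loci held more windows than most genes. A gene with any window within 100 kb had a median of 8 windows over 15972 genes, and Irf4 lay at percentile 99.8 of that distribution, Bhlhe40 at 99.3, Myb at 98.7, Prdm1 at 93.5 and Batf at 83.7. The counts include overlapping windows and were not scaled for the distance to neighboring genes. Of the 5 genes, Batf had the nearest neighbors, with starts at 88064 bp (Jdp2) and 59819 bp (Flvcr2). Of the 276 windows, 22 lay within 1 kb of a start, 30 at 1 to 10 kb, 119 at 10 to 50 kb and 105 at 50 to 100 kb. The windows within 1 kb held 17.2% of the summed CPM of the 5 genes, from 13.5% for Irf4 and Prdm1 through 15.6% for Myb and 22.1% for Bhlhe40 to 28.5% for Batf. Most of the summed CPM thus lay more than 1 kb from the outer 5′ ends, as the profile of windows along each locus shows. For Prdm1 this includes the windows at a start inside the gene. The same share over all genes is not given here.

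**Figure D1:**
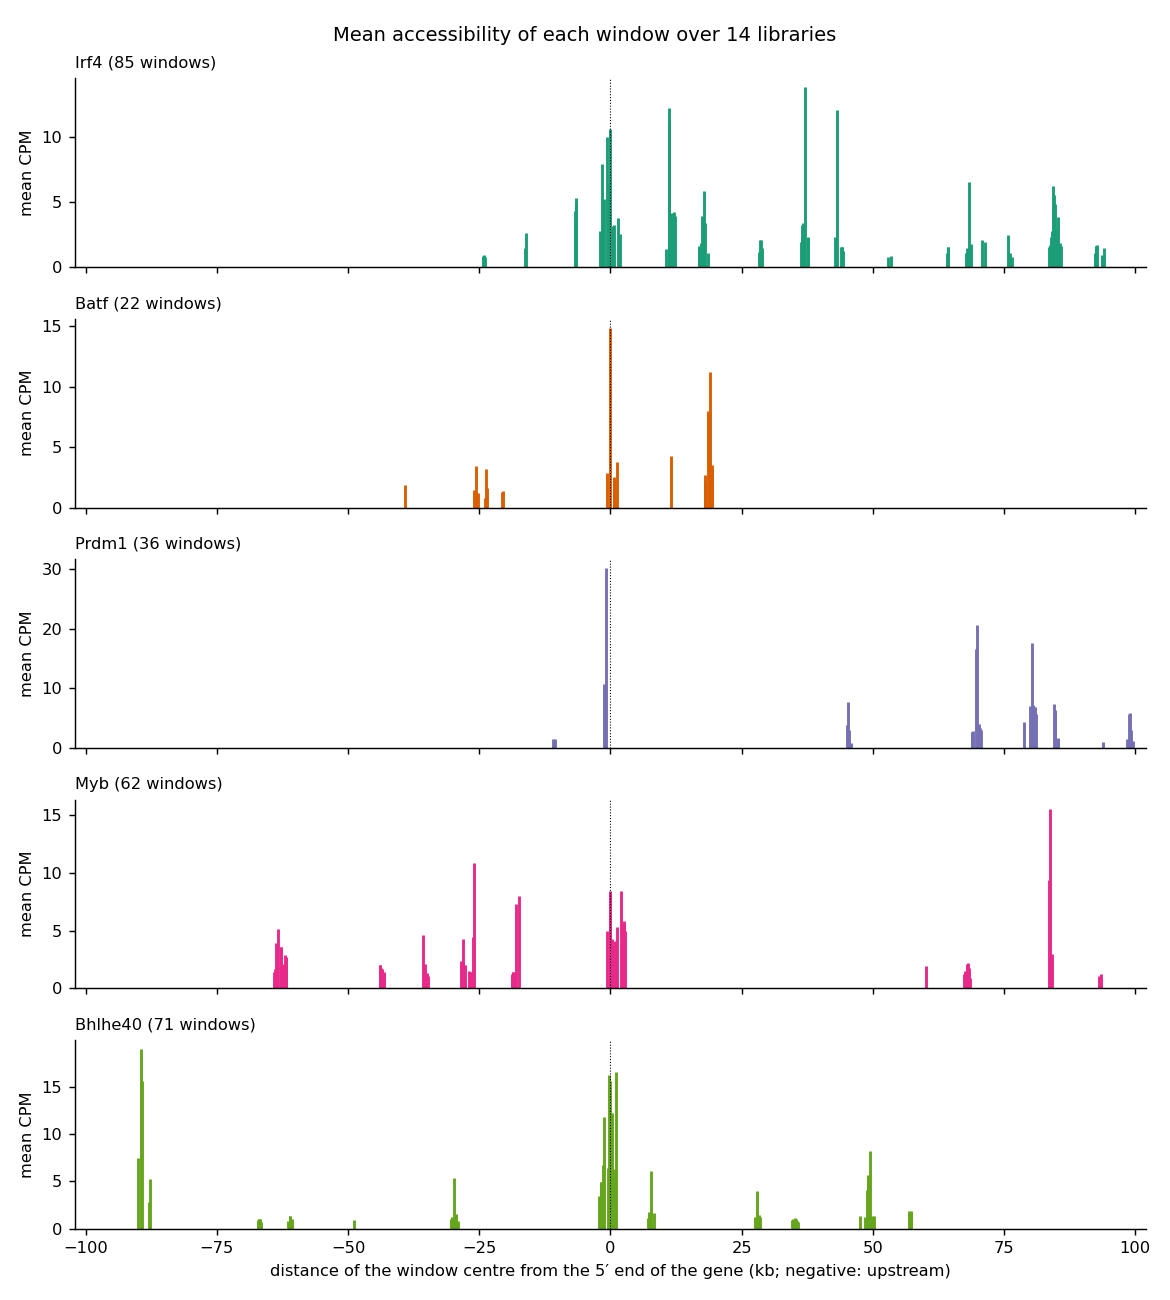
Mean CPM over 14 libraries (vertical axis, a separate scale per gene) of each window against the distance of its centre from the outer 5′ end of the gene in kb (negative is upstream); each line is 1 window. Prdm1 peaks at 30.2 CPM next to its outer 5′ end and again at 20.7 CPM at the inner start, while the highest windows of Irf4 (13.9 CPM), Myb (15.6 CPM) and Bhlhe40 (18.9 CPM) lie far from the start.

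The start windows of the 5 genes were of ordinary height. The most accessible window within 1 kb of the start had a mean of 30.2 CPM at Prdm1, 16.2 at Bhlhe40, 14.9 at Batf, 10.7 at Irf4 and 8.39 at Myb, against a median of 16.4 over 11512 genes with such a window. Prdm1 stood at percentile 75.7 among those genes, Bhlhe40 at 49.5, Batf at 46.1, Irf4 at 36.4 and Myb at 30.8. Only Prdm1, with 23.3 CPM in its lowest library, was apart from the next gene in this order, Bhlhe40, with 18.6 CPM in its highest. The ranges over libraries overlapped between Bhlhe40 (12.3 to 18.6 CPM) and Batf (11.3 to 18.2 CPM), between Batf and Irf4 (8.45 to 13.1 CPM), and between Irf4 and Myb (6.84 to 10.1 CPM).

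Prdm1 had the most accessible window of all 276, at chr10:44529387-44529588, 929 bp upstream of its outer 5′ end. Its next window, chr10:44458605-44458806, lies inside the gene with its centre 43 bp from the inner start, and 8 windows lie within 1 kb of that start. Because distances are taken from the outer end, 28 of the 36 windows of Prdm1 count as 50 to 100 kb away. When all start sites of the RefSeq promoter table were allowed as well, Prdm1 had 51 windows and Myb 49, and the other genes kept theirs. For Irf4 the highest window was chr13:30786187-30786388, 37.1 kb past the start and beyond the gene. For Bhlhe40 it was chr6:108570999-108571200, 89.5 kb upstream, and for Myb chr10:21077103-21077304, 83.8 kb downstream and outside the gene. With all start sites allowed, this window of Myb was nearest to Ahi1, 36383 bp from a start of that gene. Batf had its highest window at the start, chr12:85686510-85686711, and the next at chr12:85705570-85705771, inside the gene. Of the 276 windows, 23 were among the top 10% of all windows by mean CPM, 7 of Bhlhe40, 6 of Irf4, 5 of Prdm1, 3 of Myb and 2 of Batf.

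To ask whether the accessibility of these loci as a whole differed between genotypes, counts were summed over the windows of each gene and fitted across all genes. These gene totals are given in CPM of the counts that fall to any gene. Log2 fold changes are R26TIR1(F74G) over R26WT, with standard error (SE) and 95% confidence interval, and adjusted p values come from the quasi-likelihood test of edgeR, by the Benjamini-Hochberg method over all genes. None of the 5 gene totals passed an adjusted p of 0.05 on day 7 (0% of all 15955 gene totals did), on day 3 (0.107% of all did) or over both days (0.0188% of all did). None had an unadjusted p under 0.05 on day 7 (1174 of all 15955 gene totals did), on day 3 (2561 of 15961) or over both days (2108 of 15972). On day 3 the count became 2 of 5 without R26WT replicate 2, a refit whose count over all genes is not given here. In every gene the groups of the same day overlapped.

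At the Irf4 locus no difference beyond the spread between mice was detected. On day 3 its total was 269, 317, 292 and 292 in R26WT mice and 325, 298, 319 and 303 in R26TIR1(F74G) mice. On day 7 it was 294, 274 and 309 in R26WT mice and 277, 307 and 276 in R26TIR1(F74G) mice. The highest value was that of the library of lowest depth, R26TIR1(F74G) replicate 1 of day 3, and the lowest that of R26WT replicate 1 of day 3. On the log2 scale the fold change was 0.085 on day 3 (SE 0.053, adjusted p = 0.438 in edgeR) and -0.025 on day 7 (SE 0.061, adjusted p = 0.937 in edgeR). Over both days it was 0.04, with an interval from -0.048 to 0.13, which in percent is from -3.28% to 9.22%.

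Batf, the partner of Irf4, had the smallest total, with the fewest windows. Its total on day 3 was 86.8, 87.5, 85.3 and 82.5 in R26WT mice, which lay close together, and 97.2, 81.3, 81.8 and 74.2 in R26TIR1(F74G) mice, which spread on both sides of them. On day 7 the R26WT mice had 86.3, 78.9 and 97.6 and the R26TIR1(F74G) mice 87.9, 89.9 and 89.2, so that here the controls spread more. Its log2 fold change was -0.045 on day 3 (SE 0.078) and 0.035 on day 7 (SE 0.079), with adjusted p = 0.811 and 0.928 in edgeR. Over both days the interval ran from -8.44% to 7.82%.

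Prdm1, the gene of Blimp-1, had totals of 231, 266, 238 and 237 in R26WT and 254, 238, 253 and 241 in R26TIR1(F74G) mice on day 3. The R26WT mouse of replicate 2 held the highest value of all 14. On day 7 the totals were 242, 226 and 240.3 in R26WT and 245, 261 and 242 in R26TIR1(F74G) mice, the lowest R26TIR1(F74G) value lying just under the highest R26WT value. In the fit the log2 fold change of day 7, 0.08 (SE 0.055, adjusted p = 0.735 in edgeR), was the highest of the 5 genes on that day, and that of day 3 was 0.016 (SE 0.054, adjusted p = 0.91). Over both days the interval ran from -2.33% to 9.04%.

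Myb varied least between mice. Its totals on day 3 were 227, 234, 229 and 240.3 in R26WT and 233, 237, 251 and 241 in R26TIR1(F74G) mice, and on day 7 246, 231 and 237 in R26WT and 222, 227 and 234 in R26TIR1(F74G) mice. The mean of R26TIR1(F74G) mice was above that of the controls on day 3 and below it on day 7, with overlap on both days. The log2 fold changes were 0.045 (SE 0.048, adjusted p = 0.67 in edgeR) and -0.063 (SE 0.052, adjusted p = 0.782). Their difference, the interaction of day and genotype, was -0.11 (SE 0.068, adjusted p = 0.586 in edgeR) and did not pass. Over both days the interval for Myb was the narrowest of the 5, from -4.86% to 5.17%.

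Bhlhe40 had the smallest p of the 5 totals on day 3. The R26WT mice had 249.9, 288, 267 and 269 and the R26TIR1(F74G) mice 309, 271, 304 and 279, of which the first is the library of lowest depth. The log2 fold change was 0.11 (SE 0.055, interval -0.0069 to 0.22, adjusted p = 0.339 in edgeR). On day 7 the totals were 287, 265 and 286 in R26WT and 274, 278 and 278 in R26TIR1(F74G) mice, which is a log2 fold change of -0.013 (SE 0.051, adjusted p = 0.964). Over both days the interval ran from -1.78% to 10.4%. Bhlhe40 is the 1 gene of the 5 on the chromosome of the R26 locus, 4.4 Mb from it, so chromatin inherited with the R26TIR1(F74G) allele cannot be told apart from an effect of the receptor there.

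**Figure D2:**
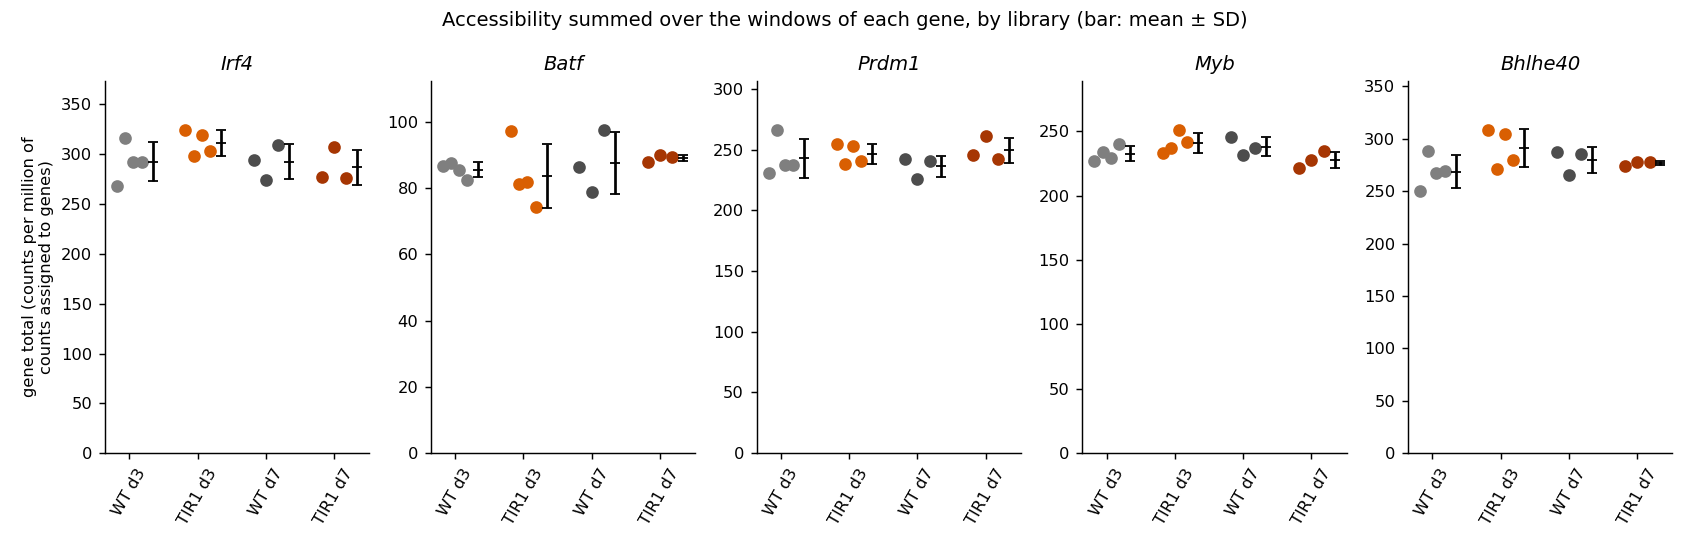
Gene total of each library (vertical axis from 0, CPM of counts assigned to genes) in the 4 groups, 1 panel per gene; points are mice and bars are mean ± SD. Within each day the points of R26TIR1(F74G) and R26WT mice overlap for all 5 genes.

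**Figure D3:**
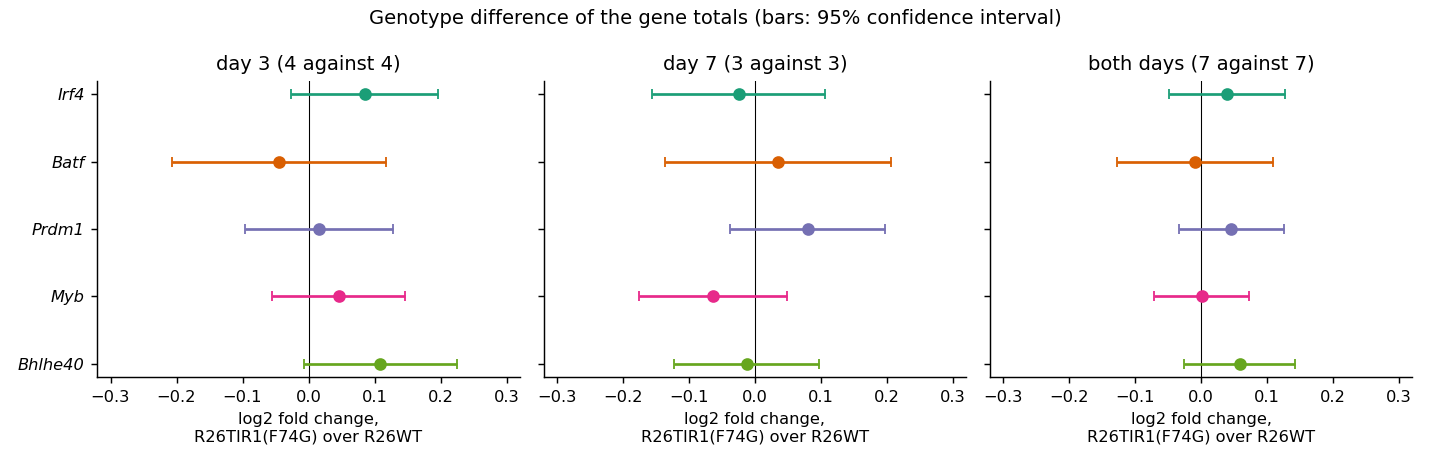
Log2 fold change of the gene totals (horizontal axis) for the 5 genes in 3 panels (day 3, day 7, days combined), with 95% confidence intervals as bars. Every interval includes 0, and over both days they reach from -0.13 (Batf) to 0.14 (Bhlhe40), on the log2 scale.

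Of the 5 totals, all but that of Batf varied less between mice than the total of the median gene. The standard deviation within groups, in percent of the mean, was 2.92% for Myb, 4.74% for Prdm1, 5.13% for Bhlhe40, 5.71% for Irf4 and 8.02% for Batf, against a median of 7.66% over 11029 genes. Those genes were not matched to the 5 in depth or number of windows, and Batf had the fewest windows of the 5. Across the 14 libraries the highest total exceeded the lowest 1.13-fold for Myb, 1.18-fold for Prdm1, 1.21-fold for Irf4, 1.24-fold for Bhlhe40 and 1.32-fold for Batf.

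Single windows were tested next, since a locus can gain at one site and lose at another. None of the 276 windows passed an adjusted p of 0.05 in any comparison by edgeR or by DESeq2. On day 7, 274 of them were tested and 0 passed (0.00463% of all windows did), with a smallest adjusted p of 0.676 in edgeR. An unadjusted p under 0.05 was reached by 7 of the 274, 3 higher and 4 lower in R26TIR1(F74G) mice (5.95% of all windows reached it). Without R26WT replicate 3 the 7 became 15, and the share of all windows in that refit is not given here. The groups did not overlap in 29, 14 higher and 15 lower (11.8% of all windows). On day 3, 0 of 271 passed (0% of all windows did), 13 had an unadjusted p under 0.05, 7 higher and 6 lower (7.55% of all windows), and 9 did not overlap, 2 higher and 7 lower (4.1% of all windows). Over both days, 0 of 276 passed (0.0112% of all windows did), 10 had an unadjusted p under 0.05, 6 higher and 4 lower (6.73% of all windows), and 1, at Myb and lower, did not overlap (0.116% of all windows). The shares with an unadjusted p under 0.05 were below those of all windows in these 3 comparisons, as were the shares without overlap on day 7 and on day 3. The share without overlap over both days was above that of all windows and rests on 1 window.

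By gene, the unadjusted count of day 7 was 3 of 85 for Irf4, 1 of 22 for Batf, 0 of 36 for Prdm1, 1 of 62 for Myb and 2 of 69 for Bhlhe40. On day 3 it was 1 of 82, 1 of 21, 1 of 36, 3 of 62 and 7 of 70 in the same order. The shares of all windows were 5.95% on day 7 and 7.55% on day 3. The 7 windows of Bhlhe40, 6 of them higher, were the largest of these counts (10% of its windows). Its windows had the lowest median level of the 5 genes, 1.39 CPM. On day 3 the median fold change of all windows was above 0 at low counts, and the part of depth in this count was not tested. The median log2 fold change over the windows of the 5 genes was -0.018 on day 7 (-0.0066 over all windows) and 0.042 on day 3 (0.0078 over all windows). Prdm1 had 26 of 36 windows above 0 on day 7 and 16 of 36 on day 3, and Myb had 20 of 62 on day 7 and 34 of 62 on day 3. Over all windows, 116589 of 237811 were above 0 on day 7 and 120471 of 235515 on day 3. Windows of 1 gene share their mice and partly overlap, so these counts describe the loci and are no test.

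The depth set how large a difference could have gone unseen. Among the 99 windows that averaged 50 counts or more, log2 fold changes ranged from -0.67 to 0.39 on day 7, from -0.53 to 0.33 on day 3 and from -0.32 to 0.36 over both days. The 95% confidence interval stayed within 1 on either side, a change of at most 2-fold, for 98 of the 99 on day 7 and for all 99 on day 3 and over both days. The typical SE of such a window was 0.17 on day 7 and on day 3 and 0.12 over both days. In windows of fewer counts the estimates spread more widely, as they did for all windows. On day 3 the median of all windows also moved with depth, from 0.16 at mean counts of 10 to 15 to -0.13 above 320, and it was below 0 from 50 counts on. Each of the 17 windows described for single genes lies in that range of depth, so their folds on day 3 and over both days stand beside a median of all windows that was below 0 on day 3. On day 7 the same medians lay between -0.075 and 0.047.

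**Figure D4:**
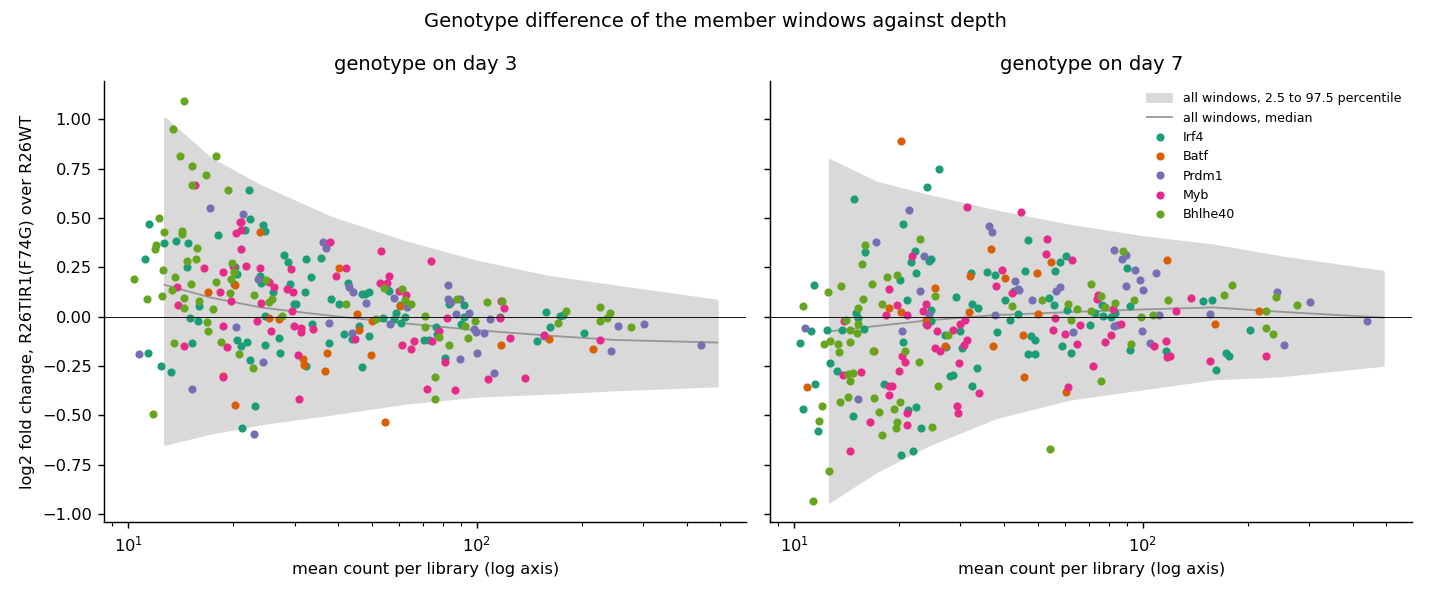
Log2 fold change of each of the windows near the 5 genes (points, colored by gene) against its mean count per library (log axis), on day 3 and day 7; the gray band holds 95% of all windows of like depth and the gray line is their median. On day 7, 4 of 274 windows lie above the band and 3 below, and on day 3, 2 of 271 above and 3 below.

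The windows described for each gene are the highest within 1 kb of its start, the highest elsewhere, and the windows of smallest p on day 7 and over both days where the average count was 50 or more. At Irf4 the start window, chr13:30749027-30749228, overlaps the printed promoter. It had 10.5, 9.94 and 11.1 CPM in R26WT and 9.47, 11.3 and 12.4 CPM in R26TIR1(F74G) mice on day 7, and 8.92, 10.6, 11.1 and 11.9 CPM in R26WT and 8.45, 13.1, 10.1 and 10.7 CPM in R26TIR1(F74G) mice on day 3. The groups overlapped on both days, and the log2 fold change was 0.085 on day 7 (SE 0.15) and 0.051 over both days (SE 0.10). The window 37.1 kb downstream had 14.5 ± 1.76 CPM (SD, n = 3) in R26WT and 14.1 ± 0.631 CPM (SD, n = 3) in R26TIR1(F74G) mice on day 7, which is a log2 fold change of -0.065 (SE 0.13). Among the windows of Irf4 at that depth, the smallest p on day 7 and over both days was at chr13:30760320-30760521, inside the gene. It had 12.3, 10.99 and 10.8 CPM in R26WT and 8.02, 10.5 and 9.86 CPM in R26TIR1(F74G) mice on day 7. All 3 R26TIR1(F74G) mice lay below the controls, but the log2 fold change of -0.27 (SE 0.15) did not pass (adjusted p = 0.858 in edgeR), and on day 3 the groups overlapped, with 10.5, 12.6, 11.4 and 13.99 CPM in R26WT and 12.4, 13.1, 11.03 and 10.4 CPM in R26TIR1(F74G) mice.

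At Batf the start window had 18.2, 13.3 and 15.3 CPM in R26WT and 15.6, 16.4 and 15.6 CPM in R26TIR1(F74G) mice on day 7. On day 3 it had 12.8, 16.1, 15.2 and 15.4 CPM in R26WT and 17.3, 13.7, 11.3 and 11.99 CPM in R26TIR1(F74G) mice. On the log2 scale the fold change was 0.028 on day 7 (SE 0.14) and -0.079 over both days (SE 0.10), so no difference was detectable there. The window inside the gene at 18.9 kb had 11.99 ± 1.58 CPM (SD, n = 3) and 11.4 ± 1.04 CPM (SD, n = 3) on day 7, a log2 fold change of -0.038 (SE 0.14). A further window inside Batf, chr12:85698221-85698422, had 4.39, 4.83 and 5.998 CPM in R26WT and 3.32, 3.58 and 4.401 CPM in R26TIR1(F74G) mice on day 7 (log2 fold change -0.38, SE 0.19, adjusted p = 0.845 in edgeR), with 1 value of each group in the range of the other. On day 3 it had 3.55, 3.97, 4.71 and 3.89 CPM in R26WT and 4.496, 3.76, 3.73 and 5.07 CPM in R26TIR1(F74G) mice, with overlap, and the direction of day 7 was not seen.

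The window of Batf 1292 bp past its start and inside the gene, chr12:85687912-85688113, had log2 fold changes of opposite sign on the 2 days. On day 3 it had 4.59, 4.04, 3.96 and 4.37 CPM in R26WT and 3.597, 2.31, 2.76 and 3.46 CPM in R26TIR1(F74G) mice, which all lay below the controls. On day 7 it had 3.81, 3.37 and 3.299 CPM in R26WT and 4.92, 3.696 and 4.15 CPM in R26TIR1(F74G) mice, with overlap. Its log2 fold change was -0.53 on day 3 (SE 0.20, adjusted p = 0.552 in edgeR) and 0.27 on day 7 (SE 0.20, adjusted p = 0.904). The interaction of day and genotype, 0.81 (SE 0.28), had the smallest p of the 276 windows in that test and did not pass (adjusted p = 0.703 in edgeR).

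At Prdm1 the window by the outer 5′ end had 32.2, 31.2 and 30.7 CPM in R26WT and 28.8, 30.7 and 33.1 CPM in R26TIR1(F74G) mice on day 7, and 25.6, 32.7, 32.5 and 32.7 CPM in R26WT and 28.95, 29.7, 23.3 and 30.2 CPM in R26TIR1(F74G) mice on day 3. The groups overlapped on both days. In the fit the log2 fold change was -0.024 on day 7 (SE 0.12) and -0.092 over both days (SE 0.085). The window at the inner start, which overlaps the printed bases, had 21.4, 20.5 and 18.6 CPM in R26WT and 20.1, 22.7 and 21.6 CPM in R26TIR1(F74G) mice on day 7 and 15.5, 21.7, 20.8 and 25.1 CPM in R26WT and 23.2, 20.1, 18.4 and 20.4 CPM in R26TIR1(F74G) mice on day 3. Its log2 fold change was 0.077 on day 7 (SE 0.12) and 0.013 over both days (SE 0.093). The inner start of the Blimp-1 gene and the site 929 bp upstream of its outer 5′ end were thus open in every library and without a detectable difference. No window covered the outer 5′ end itself. Among the windows of Prdm1 that averaged 50 counts or more, the smallest p on day 7 and over both days was at chr10:44447426-44447627, inside the gene and 11.2 kb past the inner start, with 4.91, 4.48 and 5.55 CPM in R26WT and 6.52, 5.84 and 6.12 CPM in R26TIR1(F74G) mice on day 7. These groups did not overlap, at a log2 fold change of 0.34 (SE 0.17, adjusted p = 0.848 in edgeR), while on day 3 the R26WT mice (5.54, 5.36, 5.74 and 5.61 CPM) lay within the R26TIR1(F74G) mice (6.11, 7.35, 5.52 and 4.504 CPM).

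At Myb the start window, chr10:21161029-21161230, had 9.95, 7.44 and 8.697 CPM in R26WT and 6.84, 7.51 and 8.296 CPM in R26TIR1(F74G) mice on day 7, and 8.05, 7.67, 8.13 and 9.74 CPM in R26WT and 10.1, 8.799, 7.75 and 8.53 CPM in R26TIR1(F74G) mice on day 3. The log2 fold change was -0.20 on day 7 (SE 0.16) and -0.064 over both days (SE 0.11), with overlap on both days. The highest window of Myb, 83.8 kb downstream, was nearest to Ahi1 when all start sites were allowed. It had 17.2, 17.8 and 16.6 CPM in R26WT and 15.3, 15.7 and 14.2 CPM in R26TIR1(F74G) mice on day 7. All R26TIR1(F74G) values lay below the controls, but the difference did not pass (log2 fold change -0.20, SE 0.13, adjusted p = 0.891 in edgeR). On day 3 the groups overlapped, with 12.8, 15.02, 16.4 and 18.2 CPM in R26WT and 17.3, 14.6, 12.97 and 13.7 CPM in R26TIR1(F74G) mice.

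The smallest adjusted p of all 276 windows over both days belonged to chr10:21223638-21223839, 62.8 kb upstream of Myb and between Myb and Hbs1l. On day 3 it had 2.77, 3.04, 3.48 and 3.54 CPM in R26WT and 4.68, 4.61, 3.205 and 3.94 CPM in R26TIR1(F74G) mice. On day 7 it had 3.42, 3.14 and 2.55 CPM in R26WT and 3.904, 3.81 and 4.55 CPM in R26TIR1(F74G) mice, without overlap. The mean was higher in R26TIR1(F74G) mice on both days, with a log2 fold change of 0.36 over both days (SE 0.14, interval 0.079 to 0.64), and did not pass (adjusted p = 0.626 in edgeR). The 1 window whose genotypes did not overlap over both days was another, chr10:21158156-21158357, inside Myb and 2728 bp past its start, named here after its values were seen. It had 5.89, 5.42, 5.87 and 5.25 CPM in R26WT and 4.496, 4.56, 4.84 and 3.46 CPM in R26TIR1(F74G) mice on day 3, and 5.104, 5.64 and 5.698 CPM in R26WT and 4.01, 4.83 and 4.91 CPM in R26TIR1(F74G) mice on day 7. On the log2 scale the fold change over both days was -0.31 (SE 0.12, adjusted p = 0.63 in edgeR).

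At Bhlhe40 the start window, chr6:108660287-108660488, had 18.6, 17.5 and 15.7 CPM in R26WT and 15.9, 16.5 and 16.8 CPM in R26TIR1(F74G) mice on day 7, and 12.3, 17, 16.8 and 16.6 CPM in R26WT and 17.8, 18.03, 12.4 and 14.8 CPM in R26TIR1(F74G) mice on day 3. Its log2 fold change was -0.087 on day 7 (SE 0.13) and -0.043 over both days (SE 0.10). The window 89.5 kb upstream, on average higher than the start, had 18.3 ± 3.12 CPM (SD, n = 3) in R26WT and 19.4 ± 1.46 CPM (SD, n = 3) in R26TIR1(F74G) mice on day 7, which is a log2 fold change of 0.058 (SE 0.13) and of -0.0036 over both days. No difference was detectable at either of the main sites of this locus.

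The smallest p of all 276 windows on day 7 was at chr6:108688411-108688612, 27.9 kb past the start of Bhlhe40 and beyond the gene. It had 4.199, 4.303 and 5.998 CPM in R26WT and 2.67, 2.44 and 3.59 CPM in R26TIR1(F74G) mice, which all lay below the controls. In the fit the log2 fold change was -0.67 (SE 0.21, interval -1.09 to -0.24, adjusted p = 0.676 in edgeR). The highest control value is that of the shallow R26WT library. On day 3 the same window had 3.03, 3.57, 3.14 and 4.96 CPM in R26WT and 6.29, 2.84, 4.17 and 4.26 CPM in R26TIR1(F74G) mice, with overlap and the highest value in the other shallow library, so the direction of day 7 was not seen there. Over both days the smallest p of Bhlhe40 was at chr6:108630784-108630985, 29.7 kb upstream, with 5.36, 6.86 and 4.95 CPM in R26WT and 3.74, 5.603 and 4.705 CPM in R26TIR1(F74G) mice on day 7 and 6.15, 7.74, 5.53 and 4.25 CPM in R26WT and 7.01, 3.49, 6.19 and 3.46 CPM in R26TIR1(F74G) mice on day 3. The groups overlapped on both days, at a log2 fold change of -0.32 (SE 0.14, adjusted p = 0.706 in edgeR). On day 3 the smallest p of all 276 windows was at chr6:108599804-108600005, 60725 bp upstream of Bhlhe40 and named after its values were seen. It was thinly covered, with 0.173, 0.8599, 0.615 and 0.649 CPM in R26WT and 1.26, 1.34, 1.27 and 1.21 CPM in R26TIR1(F74G) mice, which is a log2 fold change of 1.09 (SE 0.40, adjusted p = 0.54 in edgeR).

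**Figure D5:**
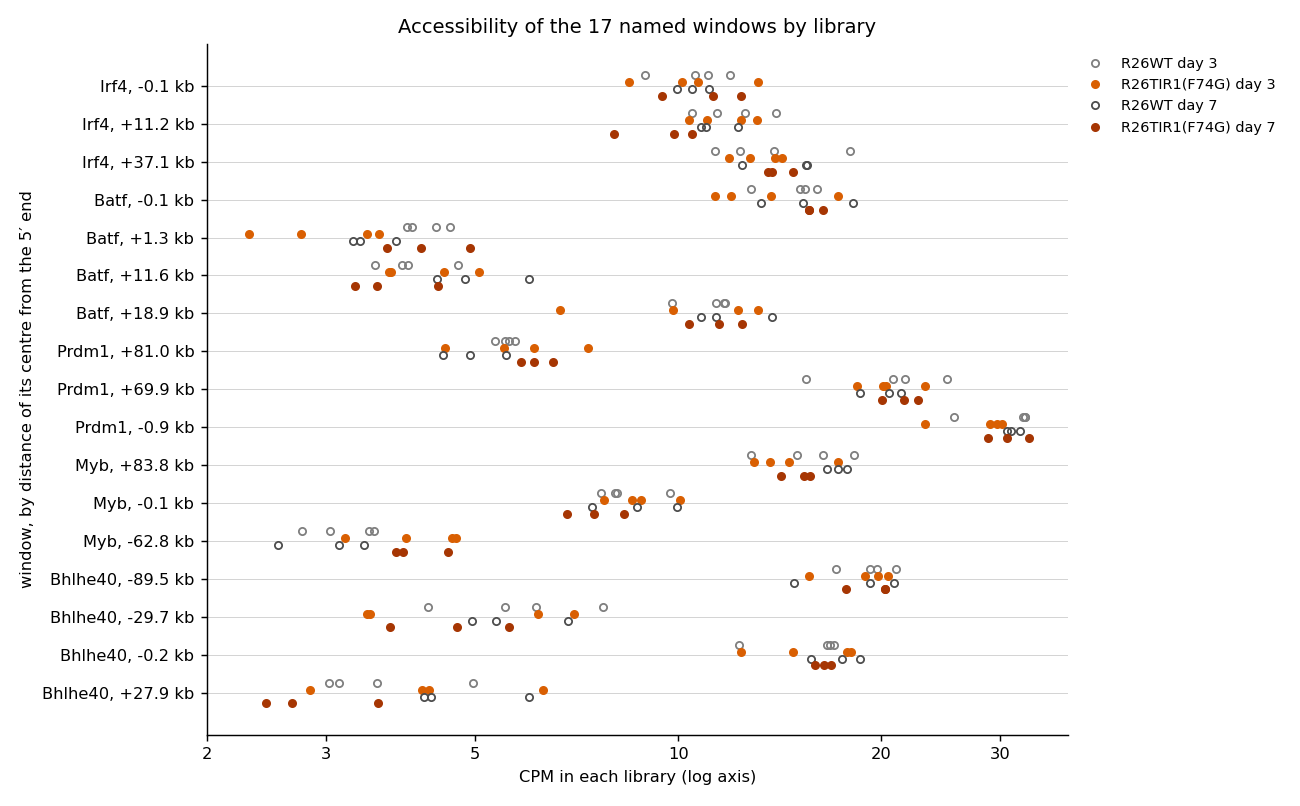
CPM of each library (horizontal log axis) in the 17 windows chosen per gene, labeled by gene and by distance of the window centre from the outer 5′ end; open circles are R26WT and filled circles R26TIR1(F74G) mice. On day 7 the R26TIR1(F74G) mice lie apart from R26WT mice at Bhlhe40 +27.9 kb, Irf4 +11.2 kb and Myb +83.8 kb (lower) and at Myb -62.8 kb and Prdm1 +81.0 kb (higher), none of which passed the test.

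Time on the ligand was compared as well, as day 7 over day 3 with genotype as a term. None of the 276 windows passed (0.00332% of all windows did), 15 had an unadjusted p under 0.05, 3 higher and 12 lower on day 7 (5.47% of all windows), and none of the 5 gene totals passed (0% of all gene totals did). The smallest p was at chr13:30833479-30833680, 84346 bp past the start of Irf4 and named after its values were seen. Its level was 6.58, 7.54, 6.69 and 7.02 CPM in R26WT and 8.45, 7.14, 6.48 and 5.63 CPM in R26TIR1(F74G) mice on day 3, and 4.199, 6.05 and 4.05 CPM in R26WT and 6.47, 6.32 and 4.705 CPM in R26TIR1(F74G) mice on day 7, with overlap between days. The log2 fold change was -0.36 (SE 0.12, adjusted p = 0.811 in edgeR). For the interaction of day and genotype 0 of 276 windows passed (0% of all windows did), 11 had an unadjusted p under 0.05, 3 above 0 and 8 below (6.32% of all windows), and 0 of 5 gene totals passed (0% of all gene totals did). The 2 days were sampled from different mice, so differences between days include any between the 2 sets of libraries.

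Related genes were compared by lists, which were also chosen with earlier results of these data known. Of 12 partner factors that share sites or complexes with Irf4 and Batf, 11 had windows, and 0 of the 11 gene totals passed in either direction in the comparisons of genotype, of day or of their interaction. Their log2 fold changes of day 7 ranged from -0.029 (Batf3) to 0.16 (Irf8), with a median of 0.047. On day 3 they ranged from -0.25 (Rela) to 0.18 (Batf3), with a median of -0.053, where the median of all genes was 0.00020. Rela, a subunit of NF-kB, had the smallest adjusted p of the list, 0.164 on day 3 in edgeR.

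Of 17 effector Treg genes, 16 had windows and 0 passed in either direction in these comparisons. Log2 fold changes of day 7 ranged from -0.31 (Itgae) to 0.16 (Lag3), with a median of -0.0073, and those of day 3 from -0.19 (Il1rl1) to 0.28 (Klrg1), with a median of 0.031. Pdcd1, which encodes the inhibitory receptor PD-1, had the smallest adjusted p, 0.146 over both days in edgeR, at a log2 fold change of 0.18 (SE 0.046). Il10, a cytokine of effector Treg cells, had -0.25 on day 7 (SE 0.15) and 0.21 on day 3 (SE 0.12). Of 12 resting Treg genes all had windows and 0 passed. Their medians were 0.022 on day 7 and -0.012 on day 3, and the smallest adjusted p over both days was that of Ccr7, a lymph node homing receptor (log2 fold change -0.13, SE 0.043, adjusted p = 0.219 in edgeR).

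Across the 14 libraries, the totals of some of the 5 genes rose and fell together. On log2 values of the totals Pearson's r was 0.83 for Irf4 and Bhlhe40, 0.73 for Irf4 and Prdm1 and 0.68 for Prdm1 and Bhlhe40, and -0.31 for Batf and Myb. These are descriptions over 14 libraries that share depth and scaling. Among 11774 genes, those most like Irf4 were Cxcl10 (r = 0.89), Zkscan16 and Inafm2 (both 0.87), and those most like Bhlhe40 were Ipo8 (0.90), Lnpep and Dnajc5b (both 0.89). For Prdm1 they were Cnpy1 (0.88), Tapt1 and Gbp8 (both 0.83), for Batf Mta3 (0.85), Psmc1 and Heatr6 (both 0.84), and for Myb Map9 (0.83), Socs2 (0.79) and Ube2e3 (0.78).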

How the data were processed

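ATAC-seq was measured in Treg cells of 14 Foxp3AID mice. The authors aligned reads with Bowtie2 to mm10 (GRCm38), called peaks with MACS2, merged those reproducible across replicates and counted reads with featureCounts in windows around summits. The deposited values are whole counts, not normalized, for 240778 windows of 201 bp. Windows can overlap, so a read may be counted more than once. The smallest mean count of a window over the 14 libraries was 10.071. Whether other libraries entered the calling of the windows was not checked.

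Windows were assigned to the nearest RefSeq 5′ end of a protein-coding gene (GRCm38.p6) within 100 kb. Exons were not used. Windows, and counts summed per gene, were tested with edgeR 4.0.16 in R 4.3.3 (quasi-likelihood test, TMM, mean count of at least 10 in the libraries compared, Benjamini-Hochberg adjustment over all windows or genes, threshold 0.05) between genotypes per day, over the 2 days with a term for day, for the interaction, and between days. The scripts were tested on simulated data. Confidence intervals cover 95%. Genes most like a member needed at least 3 windows and a mean total of at least 200 counts, and correlations used log2(CPM + 0.5). Alternatives included DESeq2 1.42.0, other scalings and filters, other assignments, each library left out and the replicate number as a block. Named windows were the highest within and beyond 1 kb, and those of smallest p on day 7 and over both days at a mean count of at least 50. Exceptions are stated. The members and lists were chosen with earlier results of these data known. Replicate numbers did not pair the mice: deviations of same-numbered mice correlated between -0.079 and 0.065 over 66750 windows. A count over the B cell and plasma cell markers is not reported here.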

Additional observations from a re-analysis of the deposited data

Results flagged for a closer look

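In 2 windows, the library of R26WT replicate 1 on day 3 lay far from the other mice of its group, by Dixon's criterion for the gap to the nearest value. The window upstream of the outer 5′ end of Prdm1 (chr10:44529387-44529588) had 25.63 CPM there, against 32.51 to 32.69 CPM in the other 3 mice, a gap of 0.974 of the range. The start window of Bhlhe40 (chr6:108660287-108660488) had 12.29 CPM there, against at least 16.64 CPM in the other 3, a gap of 0.924 of the range. Of 44 groups examined, all of day 3, 2 were picked out, and about 2.2 would be by chance, at 1 in 20. The groups of day 7, with 3 mice each, were not examined by this criterion.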

How the results depend on the processing

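No window or gene total of the 5 genes passed in any of the 5 comparisons under any alternative, DESeq2 included. These were 232 alternative counts over 10 results, each result recounted under many settings. Single windows within 50 kb, and a stricter threshold, were read from the main fit, so those counts could only be 0 and add nothing. The smallest adjusted p was 0.209 (the total of Bhlhe40 on day 3 without R26TIR1(F74G) replicate 2, by edgeR). The replicate block also gave 0 windows and 0 gene totals, and changed no call; for the comparison of days it could not be fitted within a day, and a block across days, added after seeing the data, gave 0 as well. The number of windows with an unadjusted p under 0.05 ranged over alternatives from 2 to 15 on day 7 (the latter without R26WT replicate 3), 1 to 16 on day 3 (the latter without R26TIR1(F74G) replicate 1), 4 to 16 over both days (the latter without R26WT replicate 1 of day 3), 3 to 14 for the interaction and 9 to 19 between days. The number of gene totals with such a p ranged from 0 to 2 on day 3 (the latter without R26WT replicate 2) and from 0 to 1 for the interaction (the latter with loess offsets), and was 0 under all alternatives in the other comparisons. The counts over all windows and all genes under each alternative are not given here. These ranges therefore have no background beside them. Of 290 alternative values of gene totals 30 changed sign, and of 758 of windows 30 did, none beyond 0.094 in size and none past the test; the cause was not tested. The values that changed sign are log2 fold changes. With the prefix of the mouse names as a term it was 0.00124 for the total of Irf4 on day 7, 0.0158 for the total of Batf over both days, -0.0174 for the total of Myb over both days, -0.00938 for Irf4 chr13:30749027-30749228 on day 7, -0.00711 for Prdm1 chr10:44458605-44458806 over both days, 0.00437 for Bhlhe40 chr6:108570999-108571200 over both days. With windows within 50 kb it was 0.0093 for the total of Bhlhe40 on day 7, -0.0709 for the total of Prdm1 on day 3, -0.0321 for the total of Prdm1 over both days, -0.0271 for the total of Myb over both days. With 1 window per joined region summed it was 0.0152 for the total of Bhlhe40 on day 7, -0.00108 for the total of Prdm1 on day 3, -0.00124 for the total of Myb over both days. With total counts for scaling it was -0.00279 for the total of Myb over both days, 0.0252 for Bhlhe40 chr6:108570999-108571200 over both days. With loess offsets it was -0.0125 for the total of Myb over both days, 0.0549 for Bhlhe40 chr6:108570999-108571200 over both days, 0.00596 for Bhlhe40 chr6:108660287-108660488 over both days. With the replicate number as a block it was -0.000287 for the total of Myb over both days, 0.00112 for Bhlhe40 chr6:108570999-108571200 over both days. Without both libraries of lowest depth, an alternative added after seeing the data, it was -0.0378 for Prdm1 chr10:44458605-44458806 over both days. With a stricter filter of 50 counts on average it was 0.0296 for Bhlhe40 chr6:108570999-108571200 over both days. With 1 window per joined region tested it was 0.00768 for Bhlhe40 chr6:108570999-108571200 over both days. Leaving out each library in turn gave ranges of -0.076 to 0.0143 for the total of Irf4 on day 7, -0.0383 to 0.11 for the total of Batf on day 7, -0.0501 to 0.00932 for the total of Bhlhe40 on day 7, -0.11 to 0.0064 for the total of Batf on day 3, -0.0033 to 0.0641 for the total of Prdm1 on day 3, -0.0432 to 0.0211 for the total of Batf over both days, -0.0155 to 0.0159 for the total of Myb over both days, -0.00937 to 0.19 for Irf4 chr13:30749027-30749228 on day 7, -0.0936 to 0.18 for Batf chr12:85686510-85686711 on day 7, -0.11 to 0.0468 for Batf chr12:85705570-85705771 on day 7, -0.0783 to 0.0251 for Prdm1 chr10:44529387-44529588 on day 7, -0.0441 to 0.16 for Bhlhe40 chr6:108570999-108571200 on day 7, -0.0102 to 0.0889 for Irf4 chr13:30749027-30749228 over both days, -0.11 to 0.00618 for Irf4 chr13:30786187-30786388 over both days, -0.14 to 0.00783 for Batf chr12:85705570-85705771 over both days, -0.0421 to 0.0708 for Prdm1 chr10:44458605-44458806 over both days, -0.10 to 0.000272 for Myb chr10:21161029-21161230 over both days, -0.0514 to 0.0436 for Bhlhe40 chr6:108570999-108571200 over both days, -0.0944 to 0.00609 for Bhlhe40 chr6:108660287-108660488 over both days. Windows of fewer than 50 counts had wide intervals, and with 3 mice a genotype on day 7 small changes were not detectable there.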
